A study of Mus musculus with 6 samples.

Results

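The genes described here answer to the ERK kinases and, in most cases, act back on them. They are the phosphatase genes Dusp6 and Dusp4, the ETS transcription factor genes Etv4 and Etv5, the Sprouty genes Spry1, Spry2 and Spry4, and Phlda1, Spred1 and Il17rd. The members were chosen by their role in this feedback and with their levels and differences on these 6 arrays already known. Their values are therefore a description, with no test. Every probe named for a member or for an older synonym was taken from the scanner files, which gave 19 probes for the 10 genes, out of 41174 probes on the array and 19370 genes tested. Of the 19 probes 18 were well above background often enough to be kept. Dusp6, Spry1, Etv4 and Phlda1 had 1 probe each and the other 6 genes had more.

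The cells were J1, an established mouse embryonic stem cell line. Their total RNA, collected 96 hours after transfection, was hybridised to 6 single-colour (Cy3) Agilent arrays, 2 for each of 3 groups. The control group received a non-targeting (NT) siRNA and the others (the Thoc2 and Thoc5 arrays below) an siRNA against Thoc2 or Thoc5, subunits of the THO complex, which packages new mRNA for export from the nucleus. All 3 groups came from cells kept in ESGRO medium, with M10 medium used during transfection. The labels do not say that replicates were separate cultures, so errors and p-values measure the spread between arrays, which may be technical. In bulk RNA of this kind a lower level in fewer cells and a lower level in every cell cannot be told apart.

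Growth factor receptors pass their signal through Ras and Raf to the kinases Mek and Erk, and active Erk switches on genes that restrain the same route. Dusp6 and Dusp4 remove phosphate from Erk, Sprouty and Spred proteins block the step from receptor to Raf, and Il17rd (also called Sef) acts on receptors and on Mek and Erk. Etv4 and Etv5 are transcription factors made in response to the signal. In mouse embryonic stem cells Fgf4 is a main source of this signal and primes the cells to leave the pluripotent state.

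A level is the log2 of the processed signal, less the 75th percentile of its array, and a difference is the mean level of 1 group minus that of another, with the standard error (SE) of a limma fit to all 6 arrays. Levels of different probes are not comparable with each other, since probes bind with different strength. The signal at the 75th percentile ran from 306 on Thoc5 replicate 1 to 905, and the share of spots well above background from 56.7% to 79.7%. Thoc2 replicate 1 had 880 outlier spots against 63 to 155 elsewhere and was scanned on another day. Each target was lower in its own group, Thoc2 mRNA at 55.0% of NT and Thoc5 mRNA at 41.4%, neither past the threshold (limma adjusted p = 0.304 and 0.130). With limma at an adjusted p under 0.05 no gene was called in any comparison (0 of 19369 with Thoc2 siRNA, 0 of 19370 with Thoc5 siRNA and 0 of 19369 between them, 0%), against 2814 (14.5%), 3765 (19.4%) and 1776 (9.17%) at an unadjusted p under 0.05. A limma fit with robust variances that follow intensity called 4 and 660 genes with Thoc2 and Thoc5 siRNA. All 6 embryonic stem cell markers listed (Pou5f1, Sox2, Nanog, Esrrb, Zfp42, Tdgf1) were well above background on all 6 arrays.

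By the brightest probe of each gene, Dusp6, Dusp4, Etv4, Etv5 and Phlda1 were higher with either THO siRNA than with NT, on both arrays of each group, while Spry1 was lower on both arrays of each group. The other Etv5 probe did not separate either THO group from NT. On the same probes Phlda1 stood farthest from NT, at 235% of NT with Thoc2 siRNA and 331% with Thoc5 siRNA. Spry1 was at 60.7% and 62.1%. On their brightest probes Spry2 and Spry4 overlapped with NT in both groups, so of the Sprouty genes only Spry1 stood apart from NT. In all, 5 of the 10 members lay above NT without overlap with Thoc2 siRNA, where 25.7% of all genes did, and 2 lay below, where 20.5% did. With Thoc5 siRNA 5 lay above (21.7% of all genes) and 3 below (31% of all genes). Both comparisons use the same NT arrays, so they are not independent of each other. These shares describe the members only, since the values were known when they were named.

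**Figure D1:**
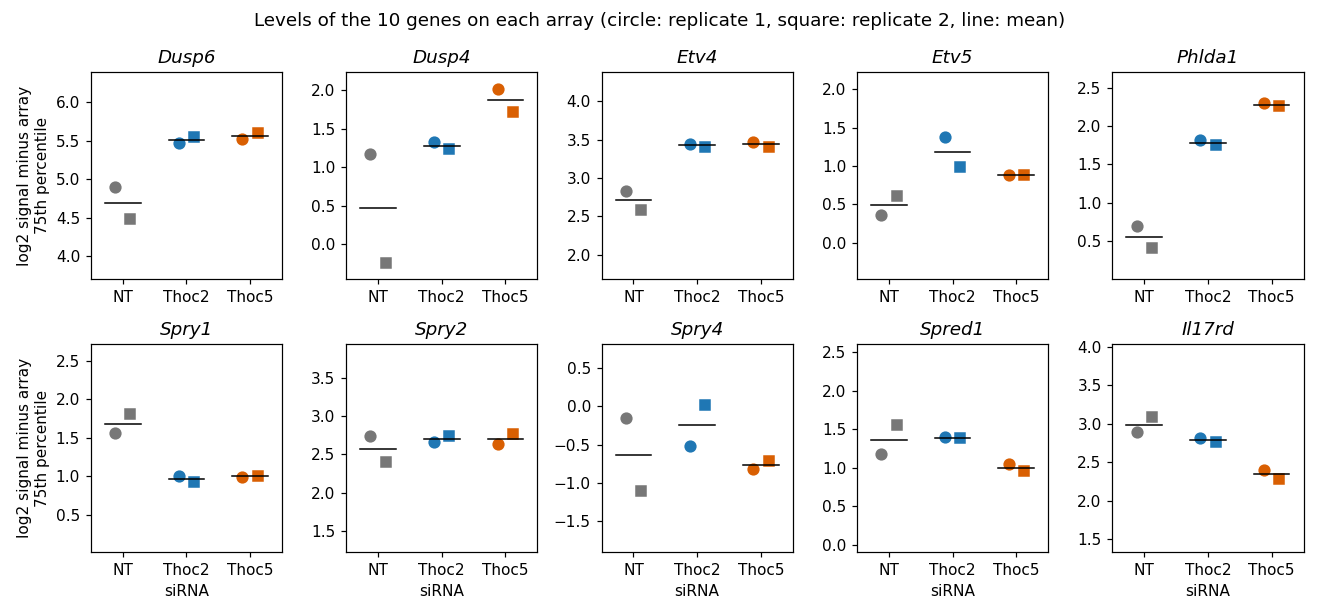
Scaled log2 level of each of the 10 genes (its brightest kept probe) on the 6 arrays, by siRNA; circles are replicate 1, squares replicate 2, lines the mean of 2 arrays, and every panel spans the same log2 range. Phlda1 lies between 0.41 and 0.70 with NT and between 1.75 and 2.30 with the THO siRNAs, while Spry1 lies between 1.56 and 1.81 with NT and between 0.92 and 1.01 with the others.

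Dusp6 encodes the cytoplasmic phosphatase that is most selective for Erk. Its 1 probe, A_51_P502614, lies on chromosome 10 from 98828759 to 98828818 on the plus strand of mm7, the genome build given in the file headers. No column of the files places a member's probe in an exon or untranslated region. The 250 bases before the Dusp6 start site are shown because Dusp6 is the member on which Erk feedback is most often read. They are RefSeq's, from chr10:99262981-99263230 of GRCm38.p6, plus strand, and the capitals mark a CCAAT box read on the other strand (ATTGG) and the letters of a site for Cic, a repressor that Erk releases from its targets (TCCATTGA, on the minus strand at -24 to -17 from the start).
Dusp6: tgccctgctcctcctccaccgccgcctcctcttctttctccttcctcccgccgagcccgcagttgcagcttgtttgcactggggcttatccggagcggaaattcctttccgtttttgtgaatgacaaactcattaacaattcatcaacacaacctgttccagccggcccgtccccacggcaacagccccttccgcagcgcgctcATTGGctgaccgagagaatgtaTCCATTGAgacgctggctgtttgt

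Dusp6 levels were 4.90 and 4.49 on the NT arrays, 5.47 and 5.54 on the Thoc2 arrays and 5.52 and 5.61 on the Thoc5 arrays. All 4 arrays of the THO siRNAs lay above both NT arrays. The same spots before scaling gave processed signals of 24430 and 20300 on the NT arrays, 31670 and 34180 on the Thoc2 arrays and 14080 and 35950 on the Thoc5 arrays. The low signal of 14080 came from the array whose 75th percentile was 306, and its scaled level was within 0.1 of the other Thoc5 array. The difference from NT was 0.81 ± 0.19 with Thoc2 siRNA (175% of NT) and 0.87 ± 0.19 with Thoc5 siRNA (183%; SE, n = 2 arrays a group). Between the THO siRNAs it was 0.06 ± 0.19, less than its error.

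The size of the Dusp6 difference depended on how the signal was processed. The normexp setting started from the mean spot signal and its local background median, with an offset of 50. It therefore replaced the processed signal and its detrending as well as the background step. Which of these changes moved Dusp6 was not tested. With normexp correction it was 0.31 with Thoc2 siRNA, beside a median of 0.29 over all genes, and 0.57 with Thoc5 siRNA, beside a median of 0.24. On the scale set by the median of all genes, Dusp6 with Thoc2 siRNA was thus 0.016 above the median gene under that correction and 0.75 above it without. Compared on the slide that held NT replicate 1 and Thoc2 replicate 2 the difference was 0.64, and on the slide that held NT replicate 2 and Thoc5 replicate 2 it was 1.12.

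Dusp4 encodes a nuclear phosphatase of Erk and related kinases, itself made in response to Erk. Its brighter probe, A_51_P518051 (chromosome 8, 33580345 to 33580404, mm7), read 1.17 and -0.24 on the NT arrays, 1.33 and 1.23 on the Thoc2 arrays and 2.02 and 1.72 on the Thoc5 arrays. The NT arrays lay far apart, and Thoc2 replicate 2 was barely above NT replicate 1, with which it shared a slide (0.068 apart). The difference was 0.82 ± 0.50 with Thoc2 siRNA and 1.41 ± 0.50 with Thoc5 siRNA (266% of NT). Without NT replicate 1 these became 1.52 and 2.11, and without NT replicate 2 they were 0.12 and 0.71.

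The other Dusp4 probe, A_51_P347333, lies further along the gene (33583106 to 33583165). It read 0.20 and -0.33 on the NT arrays, 1.41 and 0.97 on the Thoc2 arrays and 2.03 and 2.02 on the Thoc5 arrays. Here the 3 groups did not overlap and stood in the order NT, Thoc2, Thoc5. The difference was 1.25 ± 0.27 with Thoc2 siRNA (238% of NT) and 2.09 ± 0.27 with Thoc5 siRNA (425%), the latter larger than any other member probe's. Within the shared slides it was 0.77 and 2.35.

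Etv4 encodes an ETS activator of the Pea3 group, a common readout of Fgf signalling. Its probe, A_51_P230382 (chromosome 11, 101879168 to 101879227, minus strand, mm7), read 2.83 and 2.59 on the NT arrays, 3.44 and 3.40 on the Thoc2 arrays and 3.47 and 3.41 on the Thoc5 arrays. The 4 THO siRNA arrays lay within 0.1 of each other and above both NT arrays. The difference was 0.71 ± 0.16 with Thoc2 siRNA (164% of NT) and 0.73 ± 0.16 with Thoc5 siRNA (166%), and between the THO siRNAs it was 0.02 ± 0.16. Within the shared slides it was 0.57 and 0.82. With normexp correction it was 0.46 and 0.53, which is 0.17 and 0.28 above the median of all genes.

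Etv5, the close relative of Etv4, gave different answers with its 2 probes. The brighter, A_51_P323579 (chromosome 16, 22033331 to 22033390, minus strand, mm7), read 0.37 and 0.61 on the NT arrays, 1.38 and 0.99 on the Thoc2 arrays and 0.88 and 0.88 on the Thoc5 arrays. Both THO groups lay above NT. The difference was 0.70 ± 0.20 with Thoc2 siRNA (162% of NT) and 0.39 ± 0.20 with Thoc5 siRNA (131%). With normexp correction it was 0.73 and 0.31, which is 0.44 and 0.062 above the median of all genes. The probe nearer the 3′ end, A_52_P631015 (22032301 to 22032360), read 0.62 and 0.06 on the NT arrays, 0.27 and 0.37 on the Thoc2 arrays and 0.47 and 0.50 on the Thoc5 arrays. Both THO groups overlapped with NT, with differences of -0.03 ± 0.23 and 0.14 ± 0.23. The Etv5 value of the brighter probe therefore did not carry over to a probe within a span of 1090 bases. RefSeq lists 2 start sites for Etv5. The stretch before site 1 (chr16:22438369-22438618, GRCm38.p6, minus strand) is shown beside that of Dusp6 because Dusp6 and the brighter Etv5 probe stood above NT. The capitals mark a CCAAT box (ATTGG).
Etv5: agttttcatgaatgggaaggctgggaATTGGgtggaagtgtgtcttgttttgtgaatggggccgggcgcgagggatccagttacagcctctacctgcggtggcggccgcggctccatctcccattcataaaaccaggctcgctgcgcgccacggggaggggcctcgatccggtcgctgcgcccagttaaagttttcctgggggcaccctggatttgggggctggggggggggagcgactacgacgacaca

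Phlda1 encodes a pleckstrin-homology-like protein induced by receptor signalling. Its probe, A_51_P195958 (chromosome 10, 110970234 to 110970293, plus strand, mm7), read 0.70 and 0.41 on the NT arrays, 1.82 and 1.75 on the Thoc2 arrays and 2.30 and 2.26 on the Thoc5 arrays. The 3 groups were apart from each other, and each pair of replicates lay closer together than the groups. The difference was 1.23 ± 0.16 with Thoc2 siRNA and 1.73 ± 0.16 with Thoc5 siRNA, and Thoc5 siRNA lay 0.49 ± 0.16 above Thoc2 siRNA. Within the shared slides it was 1.05 and 1.85. With normexp correction the Thoc2 value was 0.70, which is 0.40 above the median of all genes.

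Spry1 was the Sprouty gene that stood below NT. Its probe, A_51_P490136 (chromosome 3, 37455053 to 37455112, plus strand, mm7), read 1.56 and 1.81 on the NT arrays, 1.01 and 0.92 on the Thoc2 arrays and 0.99 and 1.00 on the Thoc5 arrays. All 4 THO siRNA arrays lay below both NT arrays and within 0.1 of each other. The difference was -0.72 ± 0.16 with Thoc2 siRNA and -0.69 ± 0.16 with Thoc5 siRNA, and between the THO siRNAs it was 0.03 ± 0.16. Within the shared slides it was -0.64 and -0.81. It stayed below 0 in each of the 19 settings tried, some of which cannot change it. It lay between -0.84 and -0.60 with Thoc2 siRNA and between -0.81 and -0.56 with Thoc5 siRNA.

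Spry2, a Sprouty gene long used as a marker of receptor signalling, did not separate by group. Its brighter probe, A_52_P368532 (chromosome 14, 100321854 to 100321913, minus strand, mm7), read 2.74 and 2.40 on the NT arrays, 2.67 and 2.74 on the Thoc2 arrays and 2.63 and 2.76 on the Thoc5 arrays. NT replicate 1 lay among the THO siRNA arrays and NT replicate 2 below them. The difference was 0.13 ± 0.18 with either THO siRNA, and with normexp correction it turned to -0.21 and -0.24. The dimmer probe, A_51_P445153, gave 0.65 ± 0.36 and 0.18 ± 0.36, with overlap in both. The stretches before the Spry1 start (chr3:37639697-37639946, plus strand) and the Spry2 start (chr14:105896820-105897069, minus strand), both GRCm38.p6, are shown because the pair differed in their values. The capitals mark a CCAAT box (ATTGG) in Spry1 and the letters of a Cic site (TTCATTGA, -54 to -47, minus strand) in Spry2.
Spry1: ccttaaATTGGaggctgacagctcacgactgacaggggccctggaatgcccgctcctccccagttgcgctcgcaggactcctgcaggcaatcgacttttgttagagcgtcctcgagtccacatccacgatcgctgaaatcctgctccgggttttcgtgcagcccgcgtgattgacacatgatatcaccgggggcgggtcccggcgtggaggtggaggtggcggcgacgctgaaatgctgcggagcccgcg
Spry2: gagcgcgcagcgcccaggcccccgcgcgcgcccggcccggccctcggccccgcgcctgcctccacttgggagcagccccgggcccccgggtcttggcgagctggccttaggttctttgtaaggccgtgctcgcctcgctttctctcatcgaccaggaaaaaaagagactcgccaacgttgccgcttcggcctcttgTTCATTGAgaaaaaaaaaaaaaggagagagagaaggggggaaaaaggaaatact

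The short motif searched for Cic was any of TGAATGAA, TGAATGGA, TCAATGAA and TCAATGGA on either strand. It was present in 3.19% of the 32851 mouse promoter windows of 250 bases in the RefSeq table and, of the members, in Dusp6 and Spry2. CCAAT, searched on both strands, was present in 33.8% of windows, and in those of Dusp6, Spry1, Etv5 and Il17rd. The ETS letters CCGGAAG (6.91% of windows), the AP-1 letters TGANTCA (6.75%), the cAMP element TGACGTCA (1.55%), the Egr letters GCGNGGGCG (4.7%) and TATAAA (12.4%) were in none of the 7 windows of the 6 members that the table lists. Dusp4, Spry4, Etv4 and Phlda1 were not matched. The GC content of the 7 windows had a median of 62.4%, against 52.4% over all windows. Binding of Cic was not measured, and the part of any of these letters in the members' levels was not tested.

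Spry4 was read by dim probes with wide errors. The brighter, A_52_P204311, read -0.16 and -1.11 on the NT arrays, -0.51 and 0.01 on the Thoc2 arrays and -0.81 and -0.71 on the Thoc5 arrays. The NT arrays spanned almost the whole range of the others. The difference was 0.38 ± 0.39 with Thoc2 siRNA and -0.13 ± 0.39 with Thoc5 siRNA. The dimmer probe, A_51_P250422, gave 0.25 ± 0.44 and 0.92 ± 0.44, so the probes differed in sign for Thoc5 siRNA. On that dimmer probe the Thoc5 arrays (-2.95 and -3.28) lay above both NT arrays (-3.46 and -4.61), while the Thoc2 arrays overlapped with NT. Its processed signals were low, from 37.0 to 75.8. The brighter probe also changed sign with Thoc5 siRNA within the shared slide (0.39) and without NT replicate 1 (0.34).

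Spred1 encodes a Sprouty-related inhibitor that recruits neurofibromin to Ras. Its brightest probe, A_51_P119857 (chromosome 2, 116922962 to 116923021, plus strand, mm7), read 1.18 and 1.55 on the NT arrays, 1.40 and 1.39 on the Thoc2 arrays and 1.05 and 0.96 on the Thoc5 arrays. Thoc2 siRNA lay between the NT arrays, and Thoc5 siRNA lay below them. The difference was 0.03 ± 0.18 with Thoc2 siRNA and -0.36 ± 0.18 with Thoc5 siRNA. The other probes, which lie upstream within a span of 10189 bases, gave positive values. They were 1.08 ± 0.34 and 1.05 ± 0.34 for A_51_P422996, on which neither THO group overlapped NT, and 0.77 ± 0.47 and 0.52 ± 0.47 for A_52_P637689. Both were far dimmer, with processed signals from 48.6 to 175 for A_51_P422996 against 632 to 2657 for the brightest. No direction is given for Spred1, since it depended on the probe.

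Il17rd gave the same kind of split. Its brightest probe, A_51_P253732, which the files name 2810004A10Rik (chromosome 14, 24539892 to 24539951, plus strand, mm7), read 2.89 and 3.08 on the NT arrays, 2.81 and 2.76 on the Thoc2 arrays and 2.40 and 2.28 on the Thoc5 arrays. The groups stood apart in the order NT, Thoc2, Thoc5 from high to low. The difference was -0.20 ± 0.15 with Thoc2 siRNA and -0.64 ± 0.15 with Thoc5 siRNA (64.0% of NT). A_51_P184447 gave 0.33 ± 0.52 and 0.14 ± 0.52, and A_52_P12243 gave 0.81 ± 0.80 and 0.48 ± 0.80, both with overlapping groups. The remaining probe, A_52_P122590, was well above background on 1 array and was left out.

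**Figure D2:**
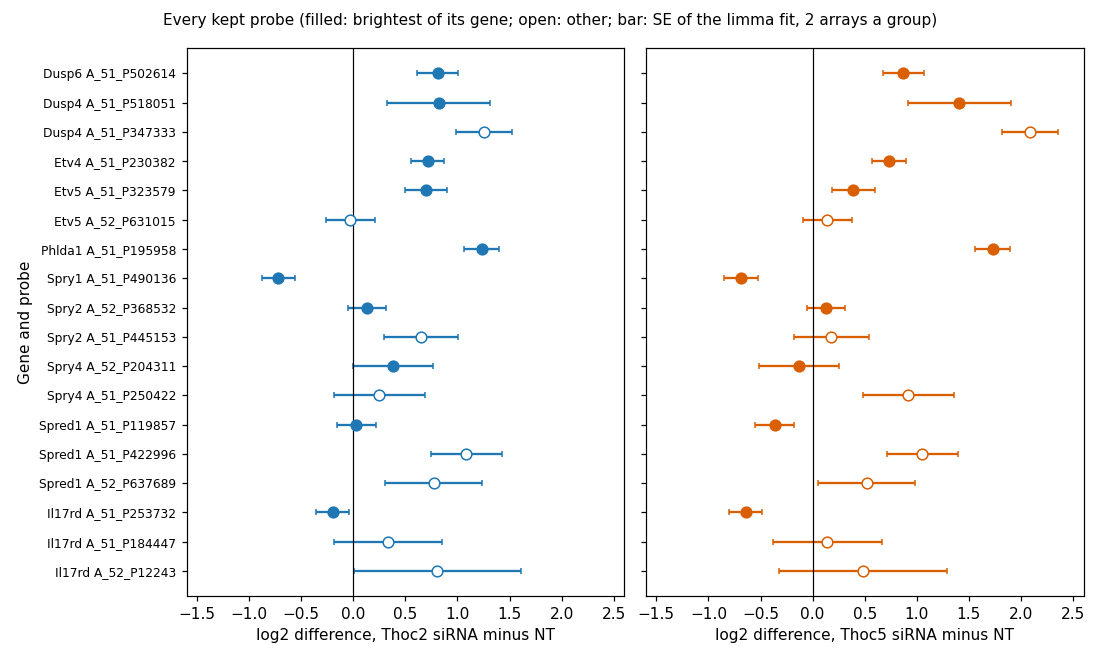
Log2 difference from NT for each of the 18 kept probes with Thoc2 siRNA (left) and Thoc5 siRNA (right); filled points are the brightest probe of a gene, open points its other probes, and bars the limma SE with 2 arrays a group. The Dusp4 probes lie on the same side of 0 in both panels, while the probes of Spred1 and Il17rd lie on both sides of 0 with Thoc5 siRNA.

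Over all 18 kept probes, 15 lay above 0 with Thoc2 siRNA and 3 below, where 57.5% of all kept probes lay above. With Thoc5 siRNA 14 lay above and 4 below, where 45.8% of all kept probes lay above. All 3 Dusp probes were above 0 in both comparisons, and of the 5 Sprouty probes 4 were above with Thoc2 siRNA and 3 with Thoc5 siRNA. Probes of 1 gene share a transcript and are not separate observations. Of the members with more than 1 probe, Dusp4 and Spry2 had all probes on 1 side of 0 in both comparisons.

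The Dusp and Etv genes were set against the Sprouty genes on each array, as the mean level of Dusp6, Dusp4, Etv4 and Etv5 minus that of Spry1, Spry2 and Spry4. The value itself has no meaning across probes, but its change between arrays does not depend on the 75th percentile used for scaling. It was 0.94 and 0.83 on the NT arrays, 1.85 and 1.57 on the Thoc2 arrays and 2.04 and 1.89 on the Thoc5 arrays. Both THO groups lay above NT with no overlap, and Thoc5 siRNA lay above Thoc2 siRNA by less, on average, than the gap between the Thoc2 replicates. The group means were 0.88 ± 0.077 with NT, 1.71 ± 0.20 with Thoc2 siRNA and 1.96 ± 0.11 with Thoc5 siRNA (SD, n = 2 each). The contrast was chosen with these values in view, so it carries no test.

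The gap was wider than with NT by 0.83 with Thoc2 siRNA and by 1.08 with Thoc5 siRNA. The Dusp genes contributed a mean difference of 0.81 and 1.14, the Etv genes 0.71 and 0.56, and the Sprouty genes -0.07 and -0.23. Spry1 supplied the negative Sprouty share, since Spry2 and Spry4 both lay above 0 with Thoc2 siRNA and on opposite sides of 0, at 0.13 and -0.13, with Thoc5 siRNA. Without Spry1 the gap was wider by 0.50 and 0.85. Without Dusp6 it was wider by 0.81 and 1.07. Over the settings tried it stayed between 0.63 and 0.97 with Thoc2 siRNA and between 0.95 and 1.15 with Thoc5 siRNA. Some of these settings cannot change it.

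**Figure D3:**
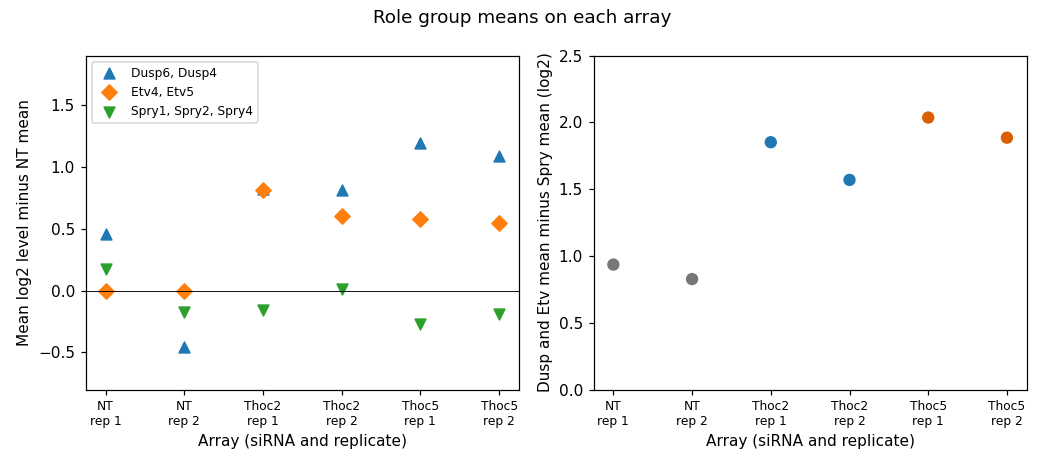
Left, the mean log2 level of the Dusp, Etv and Sprouty genes on each array minus the mean of the 2 NT arrays; right, the Dusp and Etv mean minus the Sprouty mean on each array, coloured by siRNA. The Etv mean of the THO siRNA arrays lies 0.54 to 0.81 above NT and the Sprouty mean between -0.27 and 0.02, while the Dusp mean of the NT arrays themselves lies 0.46 to either side of 0.

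Thoc5 siRNA was also set directly against Thoc2 siRNA. Of the 10 members 2 lay higher with Thoc5 siRNA without overlap, Dusp4 (0.59 ± 0.50) and Phlda1, where 13% of all genes did. Lower without overlap were 4, where 32.1% of all genes were: Il17rd (-0.45 ± 0.15), Spred1 (-0.39 ± 0.18), Etv5 (-0.31 ± 0.20) and Spry4 (-0.51 ± 0.39). These are the brightest probes. The other Spry4 probe, at 0.67 ± 0.44, and the other Etv5 probe, at 0.17 ± 0.23, lay higher with Thoc5 siRNA without overlap, and the mean of all probes was 0.078 for Spry4 and -0.069 for Etv5. The dimmer Spry2 probe was lower without overlap (-0.47 ± 0.36), and the other probes of Spred1 and Il17rd overlapped. On their brightest probes Dusp6, Etv4, Spry1 and Spry2 overlapped, with differences from -0.0039 for Spry2 to 0.06 for Dusp6, each less than its SE. The median of all genes was -0.13 in this comparison, so a difference near 0 lay slightly above the typical gene.

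Markers of other cell types were read on the same arrays. The summed linear level (2 to the power of the scaled log2 level) of the 6 embryonic stem cell markers was 272 to 296 with NT, 213 to 231 with Thoc2 siRNA and 184 to 227 with Thoc5 siRNA. Its brightest probe was that of Zfp42 (-0.37 ± 0.22 and -0.49 ± 0.22). All 6 lay below 0 in both comparisons, where 44.2% and 56.8% of all genes did. With Thoc2 siRNA they ran from -0.50 ± 0.19 (Sox2) to -0.07 ± 0.16 (Nanog), and Nanog and Tdgf1 overlapped with NT. With Thoc5 siRNA they ran from -0.88 ± 0.22 (Pou5f1) to -0.12 ± 0.26 (Tdgf1, with overlap). The sum of the trophectoderm markers (7 of 8 measured, Elf5 not) was 15.1 to 15.6 with NT, 11.1 to 11.3 with Thoc2 siRNA and 20.5 to 23.7 with Thoc5 siRNA. A sum is set mostly by its brightest probes, here those of the keratin genes Krt8 and Krt18. Marker by marker, 4 of the 7 lay above 0 with Thoc2 siRNA and 6 of the 7 with Thoc5 siRNA. Gata3, a transcription factor of trophectoderm, stood at 2.38 ± 0.17 and 1.85 ± 0.17 (limma adjusted p = 0.207 and 0.101), and Cdx2, another, at 0.97 ± 0.30 and 0.52 ± 0.30. Tfap2c lay below 0 in both, at -0.62 ± 0.23 and -0.30 ± 0.23. Krt8 was at -0.34 ± 0.21 and 0.68 ± 0.21, and Krt18 at -0.54 ± 0.20 and 0.65 ± 0.20. The primitive endoderm sum (7 of 7) was 1.88 to 8.88 with NT, 4.377 to 4.381 with Thoc2 siRNA and 3.86 to 12.2 with Thoc5 siRNA. The fibroblast and feeder sum (7 of 8, Lum not) was 1.97 to 2.45 with NT, 1.21 to 1.47 with Thoc2 siRNA and 0.94 to 1.08 with Thoc5 siRNA; its brightest marker with NT was Thy1 (-1.56 ± 0.39 and -2.01 ± 0.39). Of its 7 markers 3 lay above 0 with Thoc2 siRNA, among them Dcn at 1.06 ± 0.52 and Col3a1, which was not well above background on either NT array, and 1 with Thoc5 siRNA. The neuroectoderm sum (6 of 6) lay between 1.12 and 1.78 and the mesoderm sum (5 of 6, Mixl1 not) between 0.53 and 0.82 over all arrays. Single markers in both sums lay on opposite sides of 0. Of the neuroectoderm markers 3 lay above 0 with Thoc2 siRNA and 4 with Thoc5 siRNA, and of the mesoderm markers 3 and 2. Zic1, not well above background on either NT array, was at 1.40 ± 0.32 and 1.18 ± 0.32, and Pax6 at -0.65 ± 0.33 and -0.49 ± 0.33. Kdr was at 1.20 ± 0.22 and 1.24 ± 0.22, and Tbx6 at -1.19 ± 0.39 and -0.94 ± 0.39. The part of these differences in the members' values was not tested.

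The other genes of the pathway were read from 5 lists that hold none of the members, 84 genes of which 77 were measured. With limma at an adjusted p under 0.05, 0 of the 77 passed in any comparison. With Thoc2 siRNA 7 lay above and 8 below NT at an unadjusted p under 0.05, where 8.06% and 6.46% of all genes did; with Thoc5 siRNA 8 lay above and 9 below (7.39% and 12% of all genes). Their median difference was -0.0045 with Thoc2 siRNA, beside 0.063 for all genes, and 0.014 with Thoc5 siRNA, beside -0.085. Fgf4 had no probe under its name.

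Of the ligands and receptors 15 of 16 were measured, and none passed an adjusted p under 0.05. With Thoc2 siRNA 0 lay above and 3 below at an unadjusted p under 0.05, and with Thoc5 siRNA 1 and 4. Fgf17, a ligand of the Fgf8 group, read 0.28 and 0.23 on the NT arrays, -0.68 and -0.46 on the Thoc2 arrays and -1.02 and -1.39 on the Thoc5 arrays, so its groups did not overlap. Its difference was -0.82 ± 0.20 (limma adjusted p = 0.240) and -1.46 ± 0.20 (limma adjusted p = 0.101). Igf1r, the receptor of insulin-like growth factors, stood at -0.73 ± 0.17 and -1.12 ± 0.17, with adjusted p = 0.236 and 0.105. Kit, the receptor of stem cell factor, was at -0.50 ± 0.15 with Thoc2 siRNA, and the ligands Fgf15 and Fgf8 were at -1.06 ± 0.24 and -0.67 ± 0.16 with Thoc5 siRNA. Fgfr1, the main Fgf receptor of these cells, was at 0.01 ± 0.19 with Thoc2 siRNA, where 6 alternative settings turned its sign, and at 0.41 ± 0.19 with Thoc5 siRNA.

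The 21 genes from adaptors to Erk were all measured, and at an unadjusted p under 0.05 held 2 above and 2 below NT with Thoc2 siRNA, and with Thoc5 siRNA 1 and 1. Grb2, the adaptor that brings Sos to receptors, was at -0.51 ± 0.15 and -0.57 ± 0.15. Shoc2, a scaffold that helps to activate Raf, was at 0.62 ± 0.21 and 0.58 ± 0.21. Mapk3, which encodes Erk1, was at -0.51 ± 0.17 and -0.40 ± 0.17, and the scaffold gene Ksr1 was at 0.50 ± 0.19 with Thoc2 siRNA. These are mRNA levels; the phosphorylation of Erk was not measured.

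Other inhibitors of the pathway (15 of 18 measured) had medians of -0.23 with Thoc2 siRNA and -0.093 with Thoc5 siRNA, with 11 of 15 below 0 in each, where 44.2% and 56.8% of all genes lay below 0. At an unadjusted p under 0.05, 1 lay above and 1 below with Thoc2 siRNA, and with Thoc5 siRNA 0 and 2. Dusp10, a phosphatase of the stress kinases, was at 0.51 ± 0.15 and Dusp2, a nuclear phosphatase of Erk, at -0.48 ± 0.16 with Thoc2 siRNA. With Thoc5 siRNA Lrig1, which promotes breakdown of Egf receptors, was at -1.07 ± 0.22 and Spred2, the relative of Spred1, at -0.39 ± 0.14. Dusp5 had no probe under its name, and the probes of Spry3 and Spred3 were too dim to be kept.

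Other genes that respond to Erk (16 of 17 measured) were split. With Thoc2 siRNA 3 lay above and 2 below at an unadjusted p under 0.05, and the same numbers held with Thoc5 siRNA. Hbegf, a ligand of the Egf receptor, was at 0.76 ± 0.16 and 0.81 ± 0.16. With Thoc2 siRNA the cyclin gene Ccnd1 was at -0.63 ± 0.15, Mcl1, a survival factor, at -0.52 ± 0.15 and the ephrin receptor gene Epha4 at 0.49 ± 0.14, which turned to -0.05 with normexp correction. Fosl1, an AP-1 subunit, read -3.22 and -3.64 with NT and -2.00 and -1.72 with Thoc5 siRNA, a difference of 1.57 ± 0.24 (limma adjusted p = 0.106). Plaur, the urokinase receptor gene, was at 1.12 ± 0.22 with Thoc5 siRNA. Egr1, an immediate early transcription factor, read 1.67 and 1.52 with NT and 0.81 and 0.96 with Thoc5 siRNA, a difference of -0.71 ± 0.15 (limma adjusted p = 0.130). Fosl1 and Egr1, both induced early by Erk, thus lay on opposite sides of NT with Thoc5 siRNA, neither past the threshold.

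Of the ETS factors and repressors 10 of 12 were measured, with 1 above and 0 below at an unadjusted p under 0.05 with Thoc2 siRNA, and with Thoc5 siRNA 3 and 0. Etv6, an ETS repressor, was at 1.00 ± 0.23 and 0.71 ± 0.23. Elk3, a partner of serum response factor, was at 0.45 ± 0.13 and Erf, a repressor that Erk moves out of the nucleus, at 0.39 ± 0.14 with Thoc5 siRNA. Between the THO siRNAs, Fosl1 lay 1.32 ± 0.24 higher with Thoc5 siRNA and Egr1 -0.63 ± 0.15 (limma adjusted p = 0.448 and 0.463), and Lrig1 -0.75 ± 0.22, Dusp7 -0.67 ± 0.25, Fgf8 -0.64 ± 0.16, Fgf17 -0.63 ± 0.20 and Kit 0.49 ± 0.15. Ksr1 (-0.48), Epha4 (-0.44), Dusp9 (0.42), Fgfr1 (0.39), Erf (0.36) and Mapk3 (0.11) were closer to 0. In that comparison 3 of the 77 pathway genes lay higher and 6 lower at an unadjusted p under 0.05, where 2.18% and 6.99% of all genes did.

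**Figure D4:**
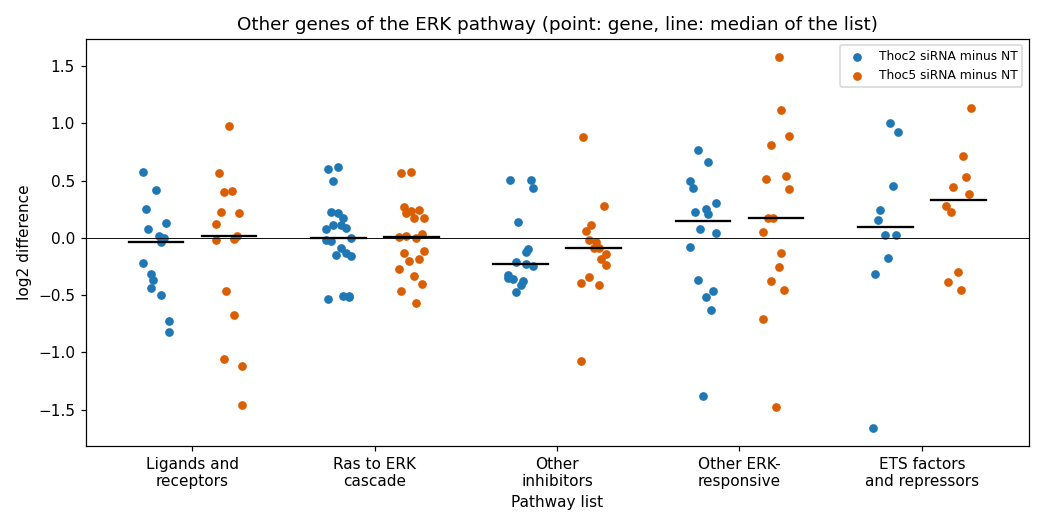
Log2 difference from NT of the 77 measured pathway genes that are not members, by list, with Thoc2 siRNA (blue) and Thoc5 siRNA (orange); points are genes and lines the median of a list. Medians lie between -0.23 and 0.14 with Thoc2 siRNA and between -0.093 and 0.33 with Thoc5 siRNA, with genes on both sides of 0 in every list.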

How the data were processed

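The deposited scanner files hold, per the file headers, a processed signal intensity for each spot after background subtraction and detrending by Agilent Feature Extraction 9.5.3.1 (11.0 in the submitters' processing notes). The deposited table of log2 values for the whole series has the same quantiles on every array (median 5.82) and ranks spots as the processed signal does; no header states how it was made, and it was used only as an alternative.

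Levels were computed as log2 processed signal minus each array's 75th percentile, without control spots and outlier flags. Spots of a probe were averaged. Probes were kept (28452 of 41174) when 1 group or more had them well above background, for at least 0.5 of their spots, on both of its arrays. The brightest kept probe stood for its gene. Probes were named through accession or symbol in a RefSeq table of GRCm38.p6 or kept the name in the files (8437), and promoter windows came from RefSeq on the same build.

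Differences and errors came from limma 3.58.1 (lmFit and eBayes, in R 4.3.3) on all 6 arrays, with 3 residual and 1.49 prior degrees of freedom, two-sided, and Benjamini-Hochberg adjustment over all genes of each of 3 comparisons at 0.05; the fit was tested on simulated data. With 2 arrays against 2, the smallest exact permutation p is 0.333. Slide 1 held NT replicate 1 and Thoc2 replicate 2, slide 2 held NT replicate 2 and Thoc5 replicate 2, and the others 1 array each.

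The members, gene lists and contrast were chosen with earlier results of these data known. Named were all members with every probe. Of each pathway list and comparison, genes with an unadjusted p under 0.05 and no overlap were named, at most 4 by p, or else the gene with the smallest p. Fgf4, Fgfr1 and Mapk3 were named whatever their values. A value that the rule would also name is not reported here. Array number limits precision. Alternatives were other scalings, normexp background correction of the mean spot signal, filters, probe rules, variance models, blocks and left-out arrays.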

Additional observations from a re-analysis of the deposited data

How the results depend on the processing

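Dusp6, Dusp4, Etv4, Etv5, Phlda1 and Spry1 kept their sign against NT in all 19 settings each. Several of these cannot change a difference, such as another variance model or leaving out an array of the group not compared. None used the other Etv5 probe alone, which was at -0.03 with Thoc2 siRNA. Of 560 alternative values of the members 52 moved by more than 1 replicate SD. With 2 arrays a group, leaving out 1 array cannot move a value past that SD, so those values could not count as moved. Spry2, Spry4, Spred1 and Il17rd changed sign in at least 1 setting of at least 1 comparison. The cause of the changes below was not tested. A stricter filter also tests fewer genes, and the part of that was not tested either. The contrast of Dusp and Etv with Sprouty genes was 0.63 for Thoc2 siRNA within the shared slide and 0.95 for Thoc5 siRNA with the mean of all kept probes. Called genes numbered 4 for Thoc2 siRNA with an intensity trend and robust variances, and for Thoc5 siRNA 660 with that fit and 509 with probes well above background on all 6 arrays, against 0. Among them for Thoc5 siRNA, limma's adjusted p under the stricter filter was 0.0388 for Fgf17, 0.0430 for Igf1r and 0.0427 for Fosl1, and with the trend 0.0258 for Fgf17, 0.0417 for Igf1r, 0.0385 for Hbegf, 0.0385 for Plaur and 0.0469 for Egr1. Genes at an unadjusted p under 0.05 numbered 2814, 3765 and 1776 (Thoc2, Thoc5, and between them), and 838, 985 and 43 with normexp correction. Without Thoc2 replicate 1 the first was 1827. Without Thoc5 replicate 1 the others were 2100 and 1033, and without Thoc5 replicate 2 the second was 2209. Of all genes 43.2% lay above NT with Thoc5 siRNA, but 61.0% with normexp correction (median 0.24) and 53.3% with no filter. Between the THO siRNAs 35.0% lay above, but 49.3% with quantile normalization and 48.2% in the deposited values. Signs turned for Thoc2 siRNA in Fgfr1 (quantile -0.0709, cyclic loess -0.00840, array median -0.0423, deposited values -0.0807, without NT replicate 2 -0.0936, without Thoc2 replicate 2 -0.157, while it stayed above 0 at 0.183 without Thoc2 replicate 1) and Epha4 (normexp -0.0462). Between the THO siRNAs they turned in Fgfr1 (normexp -0.00497), in Epha4 (mean of probes 0.000204) and in Mapk3 (without Thoc2 replicate 1 -0.0398, but not without Thoc2 replicate 2, at 0.261). The replicate numbers did not pair the arrays: differences between replicates correlated at -0.20, 0.143 and 0.218 over 19026 genes. With the replicate number as a block, 0 genes were called in any of the 3 comparisons. Each group holds 1 array of each replicate number, so this block cannot change the contrast (0.83, 1.08 and 0.25). With the slide as a random block 0 were called in each comparison, and the contrast was 0.79, 1.06 and 0.27. With the pairing crossed for Thoc2 siRNA, chosen after seeing the data, 0 were called.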
